A study of Mus musculus with 10 samples.

Results

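Neutrophils are short-lived granulocytes that leave the blood when CXC chemokines of the kind made by inflamed tissue bind their receptor CXCR2. In tumours they can act for or against the growth, and the chemokines that call them in are made by tumour cells, macrophages, fibroblasts and the neutrophils themselves. Here 10 genes were followed, 6 that mark neutrophils (S100a8, S100a9, Csf3r, Cxcr2, Ly6g and Retnlg) and 4 that encode ligands of CXCR2 (Cxcl1, Cxcl2, Cxcl3 and Cxcl5). They were picked by symbol, and all 10 were found among the 21849 genes of the count table.

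The RNA came from tumours of CT26, a mouse colon carcinoma line, grown subcutaneously in BALB/c mice, 5 weeks old at the start. One group ate an arginine-deficient diet and the other a normal diet of equal calories, in both cases for 1 week before the cells were implanted, and the tumours were taken on day 20. Each diet had 5 libraries of total tumour RNA, taken here as separate tumours. All animals carried the same single implanted line. The library numbers of the diets fall in separate runs, and as the labels do not say what they stand for, any difference that goes with them cannot be told apart from the diet.

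Library totals ran from 12013178 to 31530123 counts, and the largest totals were those of arginine-deficient replicates 1 and 3. The libraries richest in skeletal muscle transcripts (9 genes, Acta1 listed at 0) were arginine-deficient replicates 3 and 4 and normal-diet replicate 4, with sums of 5074, 1212 and 451 CPM, and no other exceeded 54.2 CPM. CPM is the count scaled by library size, here with TMM factors. Red blood cell genes (haemoglobins, with Alas2 listed at 0) summed to 56.2 to 106 CPM on the deficient diet and 101 to 602 CPM on the normal diet, the highest being normal-diet replicate 1. All exonic bases of Acta1 and Alas2 lie inside other genes. The mitochondrial share of counts was 9.97% in arginine-deficient replicate 3 and 1.67% to 4.44% elsewhere. The diets were compared by edgeR's quasi-likelihood test over 12929 genes, of which 7 (0.0541%) passed at a Benjamini-Hochberg adjusted p of 0.05.

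The ligand genes lie in one cluster on the plus strand of chromosome 5 (mm10), from 90759360 to 90905938, a span of 146.6 kb. Cxcl5 (ENSMUSG00000029371.7) is at 90759360 to 90761624, Cxcl3 (ENSMUSG00000029379.10) at 90786103 to 90789600, Cxcl1 (ENSMUSG00000029380.11) at 90891241 to 90893115 and Cxcl2 (ENSMUSG00000058427.10) at 90903871 to 90905938. The platelet chemokine genes Ppbp and Pf4 lie between Cxcl5 and Cxcl3, and Cxcl15 lies between Cxcl3 and Cxcl1. Of the marker genes, S100a8 (ENSMUSG00000056054.9; 90668978 to 90670035) and S100a9 (ENSMUSG00000056071.12; 90692632 to 90695721) are neighbours on chromosome 3. Csf3r (ENSMUSG00000028859.14) is on chromosome 4, Cxcr2 (ENSMUSG00000026180.8) on chromosome 1, Ly6g (ENSMUSG00000022582.4) on chromosome 15 and Retnlg (ENSMUSG00000022651.6) on chromosome 16. These spans are whole genes, exons and introns together, and no exonic base of any member lies inside another gene.

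NF-kB, a transcription factor of inflammation, is well known to drive the genes of this cluster, so the bases before the starts of Cxcl1, Cxcl2 and Cxcl3 are shown, the ligands whose ratios are compared below. Each line gives the 120 bases before the RefSeq start on GRCm38.p6 (the mm10 build), plus strand, with matches to a kappa B motif (3 G, any 2 bases, 3 T and 2 C) on either strand in capitals. They cover chr5:90891125-90891244, chr5:90903779-90903898 and chr5:90785981-90786100, in the order printed.
Cxcl1: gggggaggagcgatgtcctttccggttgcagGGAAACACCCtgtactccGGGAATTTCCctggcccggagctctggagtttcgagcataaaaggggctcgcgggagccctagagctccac
Cxcl2: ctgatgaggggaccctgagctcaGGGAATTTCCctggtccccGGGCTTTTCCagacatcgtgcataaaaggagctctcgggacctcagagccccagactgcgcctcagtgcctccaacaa
Cxcl3: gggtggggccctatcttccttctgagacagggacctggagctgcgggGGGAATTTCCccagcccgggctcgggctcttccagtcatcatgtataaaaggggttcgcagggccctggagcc

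All of these windows held GGGAATTTCC, and Cxcl1 and Cxcl2 held a further match of the same kind that does not overlap it. Within 250 bases before the start, 1.41% of the 32851 RefSeq starts of the genome had a match to that motif. The 6 marker genes, S100a8, S100a9, Csf3r, Cxcr2, Ly6g and Retnlg, had no match, and Cxcl5 had no entry. The letters TATAAA, which 12.4% of starts hold, were in the windows of S100a8, Cxcl3 and Ly6g. TTNNGCAA, a pattern bound by C/EBP factors and held by 9.56% of starts, was in those of S100a9, Ly6g and Retnlg. A match describes letters only and shows no binding.

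The levels of the members were compared per length, as CPM per kilobase of the longest protein-coding transcript. Over the 10 tumours S100a9 averaged 15.1 ± 4.74 (SD, n = 10) and Cxcl1 14.8 ± 6.25 CPM per kilobase, and S100a9 was above Cxcl1 in 7 of 10 libraries, so on this scale their order is within the spread. S100a8 at 8.36 ± 1.77 was below Cxcl1 in all 10 libraries and above Csf3r, at 6.21 ± 0.990, in 8. Cxcl3 (4.16 ± 3.95) was above Cxcl2 (3.60 ± 1.93) in 4 libraries, which were arginine-deficient replicates 2 to 5, and below it in every normal-diet library. Retnlg (1.60 ± 0.785) was above Cxcl5 (1.25 ± 0.693) in 6 libraries, and Cxcl5 was above Cxcr2 (0.236 ± 0.0983) in all 10. Ly6g came last. Over the union of all annotated exons, which for Cxcl1, Cxcl2 and Cxcl3 is 1 block with introns retained in some transcripts, the order changed. Cxcl1 then averaged 7.52 CPM per kilobase against 14.98 for S100a9, Csf3r (5.99) came before S100a8 (5.85), and Cxcl3 (1.21) went from the fifth to the seventh place, after Cxcl2 and Retnlg.

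No marker of neutrophils passed the test between the diets. Of the 5 tested, 0 had an edgeR adjusted p under 0.05, and 0 an unadjusted p under 0.05, which 6.74% of all genes tested had (3.54% higher and 3.19% lower on the deficient diet). The log2 fold change (deficient minus normal diet) was above 0 in 1 of the 5, Retnlg, against 50.3% of all genes tested, and its median was -0.15, against 0.0012 over all genes. In bulk RNA, the number of cells of a type and the RNA made per cell cannot be told apart.

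S100a8 and S100a9 encode the subunits of calprotectin, a calcium-binding protein that fills the neutrophil cytosol. S100a8 stood at 2.79, 4.55, 2.84, 4.10 and 5.05 CPM in arginine-deficient replicates 1 to 5 and at 5.29, 4.07, 4.56, 4.09 and 3.28 CPM in normal-diet replicates 1 to 5. The diets overlapped widely, and the lowest values were those of arginine-deficient replicates 1 and 3, which also had the largest library totals. The log2 fold change was -0.15 (SE 0.23, edgeR adjusted p = 0.998), and 0.10 when those replicates were left out. S100a9 stood at 4.0, 11.8, 4.48, 6.52 and 6.92 CPM on the deficient diet and at 10.4, 7.53, 8.26, 9.14 and 9.17 CPM on the normal diet. Of the deficient libraries 4 were below every normal-diet library, and arginine-deficient replicate 2 was above them all. Its log2 fold change of -0.41 (SE 0.27, edgeR adjusted p = 0.903) became -0.71 without arginine-deficient replicate 2 and -0.08 without the libraries with the largest totals. The part of library depth in these values was not tested.

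Csf3r encodes the receptor of granulocyte colony-stimulating factor, the cytokine that drives neutrophil production, and is also expressed by monocytes. It stood at 27.9, 22.3, 21.0, 16.4 and 20.5 CPM on the deficient diet and 21.7, 25.7, 21.5, 22.1 and 17.0 CPM on the normal diet. The means were nearly equal at 21.6 ± 4.13 and 21.6 ± 3.11 CPM (SD over 5 tumours a diet; log2 fold change -0.0014 with SE 0.16 and edgeR adjusted p = 0.9998). Of the 50-base words of its longest coding transcript 11.2% also occur in transcripts of other genes, and the sources used here do not give how reads with several matches were counted.

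Cxcr2, the receptor of the ligands below, had only 6 to 21 counts per library. Its mean was 0.604 ± 0.187 CPM in the deficient tumours and 0.833 ± 0.366 CPM in the others (SD over 5 tumours a diet; log2 fold change -0.43 with SE 0.38 and edgeR adjusted p = 0.960). Retnlg, a resistin-like protein of mature neutrophils, had 2 to 29 counts per library, and means of 1.10 ± 0.418 and 0.805 ± 0.509 CPM in the same order (log2 fold change 0.39 with SE 0.44 and edgeR adjusted p = 0.979). For both, the libraries of the diets overlapped, and no difference was detectable at this depth. With single libraries left out, the log2 fold change of Cxcr2 ran from -0.64 (without normal-diet replicate 2) to -0.26 (without normal-diet replicate 5). That of Retnlg was 0.17 without arginine-deficient replicate 2, 0.17 without normal-diet replicate 5, which had 2 counts, and 0.76 without normal-diet replicate 1.

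Ly6g, the surface protein by which mouse neutrophils are usually sorted, was barely detected. It had 14 counts in all, 0 to 4 per library and 0 in 4 libraries, and was too low to be tested. A count of 0 allows up to 3 counts, here 0.0951 to 0.250 CPM depending on the library, an upper limit that covers counting error only. Granule and maturation genes were uneven. Totals over the 10 libraries were 3 counts for Mpo (myeloperoxidase), 14 for Elane (neutrophil elastase) and 46 for Prtn3 (proteinase 3), but 176 for Ngp, 265 for Camp and 322 for Ctsg (cathepsin G), and 3281 for Lcn2 and 4438 for Mmp9, which other cells also make. Which cells made the messages of any of these granule and maturation genes was not tested. Of the 6 markers, the one most particular to neutrophils was at the limit of detection, and Csf3r, which other myeloid cells also express, had the most counts. Counts of S100a8 (39 to 107 per library) and S100a9 (96 to 197) lay below those of Csf3r (202 to 878). These counts are not scaled by length, and the longest coding transcripts have 486, 519 and 3481 bases in that order. Per kilobase of these transcripts, the mean of Csf3r (6.21 CPM) was below those of S100a8 (8.36) and S100a9 (15.1).

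**Figure D1:**
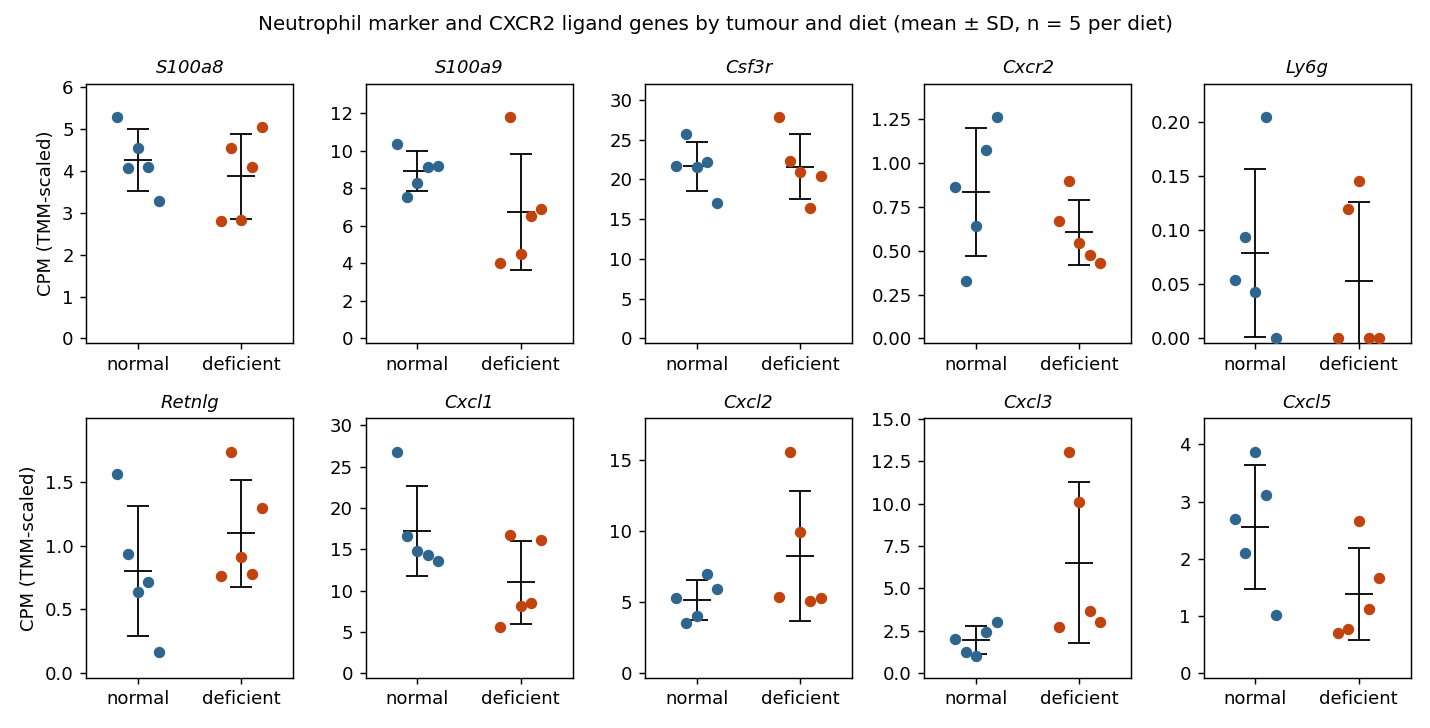
CPM of each of the 10 genes (vertical axes, linear, each with its own scale) in every tumour, by diet (horizontal axis, left normal and right arginine-deficient). Points are libraries, in replicate order from left to right, and bars are mean ± SD (n = 5 per diet). Cxcl3 reaches 13.1 and 10.1 CPM in arginine-deficient replicates 2 and 3 and at most 3.67 CPM elsewhere, while Csf3r has nearly the same mean on both diets.

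No ligand gene passed over all genes by edgeR. The log2 fold changes were above 0 for Cxcl3 and Cxcl2 and below 0 for Cxcl1 and Cxcl5. Cxcl3 was the only 1 of the 9 tested members with an unadjusted p under 0.05, which 6.74% of all genes tested had. Together the 4 ligands summed to 27.1 ± 12.4 CPM in the deficient tumours and 26.9 ± 5.74 CPM in the others (SD, n = 5 each).

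Cxcl3, a chemokine close in sequence to Cxcl2, stood at 2.70, 13.1, 10.1, 3.67 and 3.03 CPM in arginine-deficient replicates 1 to 5 and at 2.00, 1.26, 1.02, 2.45 and 3.03 CPM in normal-diet replicates 1 to 5. The values of arginine-deficient replicates 2 and 3 stood far above the rest, and the other deficient libraries were close to the top of the normal-diet range. Its log2 fold change of 1.75 (SE 0.49, unadjusted p = 0.00389) ranked it 136th of the genes tested, with an adjusted p of 0.369 by edgeR. Without arginine-deficient replicate 2 the log2 fold change was 1.33, and without arginine-deficient replicate 3 it was 1.54. It was 1.81 without the 3 libraries richest in muscle, which are arginine-deficient replicates 3 and 4 and normal-diet replicate 4. Leaving out single libraries gave adjusted p of 0.295 to 0.881 by edgeR. DESeq2 called it (adjusted p = 0.0315), as it did 0.999% of the genes it tested.

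Cxcl2, the chemokine known as MIP-2, is made by activated macrophages. It stood at 5.33, 15.6, 9.90, 5.05 and 5.26 CPM on the deficient diet and at 5.29, 3.56, 4.04, 7.0 and 5.89 CPM on the normal diet. Again arginine-deficient replicates 2 and 3 were highest, and the other 3 lay inside the normal-diet range. The log2 fold change was 0.67 (SE 0.34, edgeR adjusted p = 0.785), and 0.31 without arginine-deficient replicate 2.

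Cxcl1, known as KC, is made by tumour and stromal cells in many tissues. It stood at 5.65, 16.7, 8.08, 8.46 and 16.1 CPM on the deficient diet and at 26.8, 16.6, 14.8, 14.4 and 13.5 CPM on the normal diet. Arginine-deficient replicates 1, 3 and 4 were below every normal-diet library, while replicates 2 and 5 lay inside that range. The log2 fold change was -0.66 (SE 0.31, edgeR adjusted p = 0.753), and -0.32 without the 2 libraries with the largest totals, arginine-deficient replicates 1 and 3. It was -0.44 without normal-diet replicate 1. That library, the highest in Cxcl1, also had the most haemoglobin, 602 CPM over the red blood cell list. Normal-diet replicate 5 had 528 CPM of that list and the lowest Cxcl1 of its diet. The part of blood in the values of Cxcl1 was not tested.

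Cxcl5, known as LIX, had 12 to 91 counts per library. It stood at 0.698, 0.779, 2.66, 1.12 and 1.66 CPM on the deficient diet and at 2.70, 2.11, 3.87, 3.12 and 1.01 CPM on the normal diet. The values of normal-diet replicates 1 to 4 were all above those of 4 deficient libraries, while arginine-deficient replicate 3 lay among them and normal-diet replicate 5 lay below 3 deficient libraries. The log2 fold change was -0.90 (SE 0.43, edgeR adjusted p = 0.753). By limma voom with sample weights it was -1.49 and was called lower (limma adjusted p = 0.0319), as 2.88% of all genes were called in either direction.

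In 0 of the 9 tested members did the libraries of the diets fail to overlap, against 1.65% of all genes tested. The other tested genes of the chromosome 5 cluster, Ppbp and Pf4, both had log2 fold changes above 0 and unadjusted edgeR p under 0.05 (0.0495 and 0.0345). Of all genes tested, 3.54% were higher on the deficient diet at that level. Neither gene passed. For Ppbp, which encodes a platelet ligand of CXCR2, the log2 fold change was 0.75 (SE 0.34, edgeR adjusted p = 0.738) and for Pf4, which encodes platelet factor 4, it was 0.56 (SE 0.23, edgeR adjusted p = 0.688). Cxcl15 had 1 count in all and was not tested. Along the cluster the log2 fold changes were thus -0.90 for Cxcl5, 0.75 for Ppbp, 0.56 for Pf4, 1.75 for Cxcl3, -0.66 for Cxcl1 and 0.67 for Cxcl2, none called by edgeR.

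**Figure D2:**
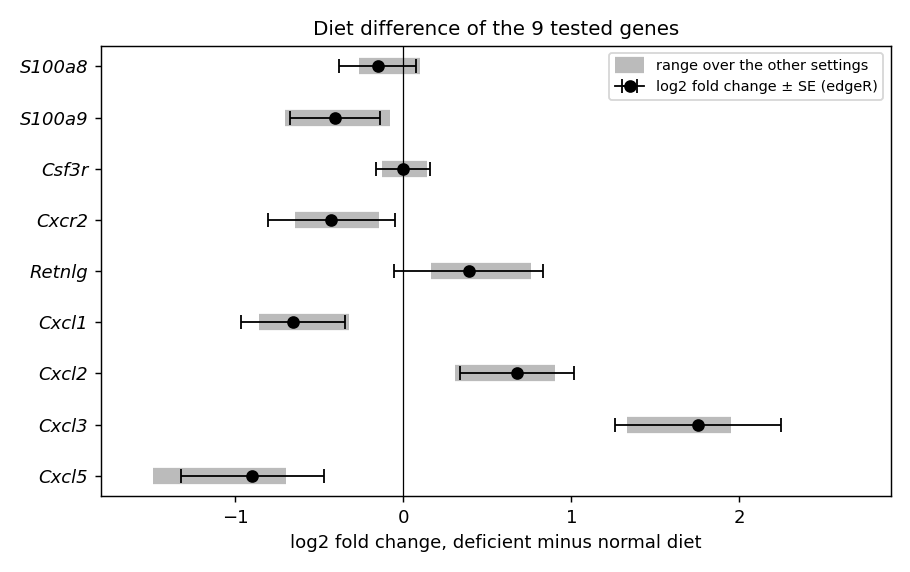
Log2 fold change between the diets (horizontal axis, deficient minus normal; black point ± SE, edgeR) for the 9 tested genes (vertical axis), with the range over 19 or 20 other settings in grey. Cxcl3 lies at 1.75 and stays between 1.33 and 1.95, and Cxcl5 lies at -0.90 and stays between -1.49 and -0.70.

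Because a ratio of 2 genes in one library does not depend on scaling between libraries, the 6 ratios among the ligands were compared too, a test chosen after the values were seen. Cxcl2 and Cxcl3 had log2 fold changes above 0 and Cxcl1 and Cxcl5 below 0, so differing ratios between these were likely beforehand. The p-values below are therefore a description. The share of other gene pairs that reach them was not computed. Counts of Cxcl3 for each count of Cxcl1 were 0.478, 0.781, 1.25, 0.434 and 0.188 in arginine-deficient replicates 1 to 5 and 0.0744, 0.0763, 0.0692, 0.171 and 0.224 in normal-diet replicates 1 to 5. Of the deficient libraries 4 were above every normal-diet library, and replicate 5 was between normal-diet replicates 4 and 5. The mean log2 ratio was -0.94 ± 1.02 on the deficient and -3.20 ± 0.79 on the normal diet (SD, n = 5 each), a difference of 2.26 (exact two-sided permutation p = 0.0159, adjusted p = 0.0317 over the 6 ratios).

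The Cxcl3 to Cxcl2 ratio differed by 0.98 on the log2 scale and the Cxcl5 to Cxcl3 ratio by -2.47, each with the same exact permutation p and adjusted p as the first. The Cxcl2 to Cxcl1 and Cxcl5 to Cxcl2 ratios differed by 1.28 and -1.50 (exact two-sided permutation p = 0.0317 and 0.0397, adjusted p = 0.0476 for both). The Cxcl5 to Cxcl1 ratio had a difference of -0.21 (exact two-sided permutation p = 0.714). The ratios share genes and are not independent tests, and the smallest p the design allows is 0.00794. The 3 ratios with Cxcl3 had an adjusted p of 0.0635 by the exact permutation test when arginine-deficient replicate 3, or any of normal-diet replicates 1, 2 and 3, was left out. They kept an adjusted p under 0.05 without any 1 of the other 6 libraries. The Cxcl2 to Cxcl1 ratio kept it in only 3 of the 10 such tests, those without replicate 5 of either diet or normal-diet replicate 4. The Cxcl5 to Cxcl2 ratio kept it in 2, those without replicate 5 of either diet. Without the 3 libraries richest in muscle, all 5 had an adjusted p of 0.103 by the exact permutation test.

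As a share of the 4 ligands' counts, Cxcl1 held 26.3% to 61.8% on the deficient and 53.3% to 72.9% on the normal diet. Cxcl3 held 11.6% to 32.8% and 4.31% to 12.9%, and Cxcl2 20.2% to 37.1% and 14.4% to 26.0%. Cxcl5 held 1.69% to 8.65% and 4.30% to 16.3%. The shares of Cxcl3 overlapped only through normal-diet replicate 5, at 12.9%, and arginine-deficient replicate 5, at 11.6%. Cxcl2 and Cxcl3 share 61 words of 50 bases in their longest coding transcripts, 3.37% and 6.31% of each, and no such word of Cxcl1 occurs in another gene's transcripts. Reads or read pairs that lie wholly within a shared stretch cannot be assigned to either gene, and the sources used here do not give how they were counted.

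**Figure D3:**
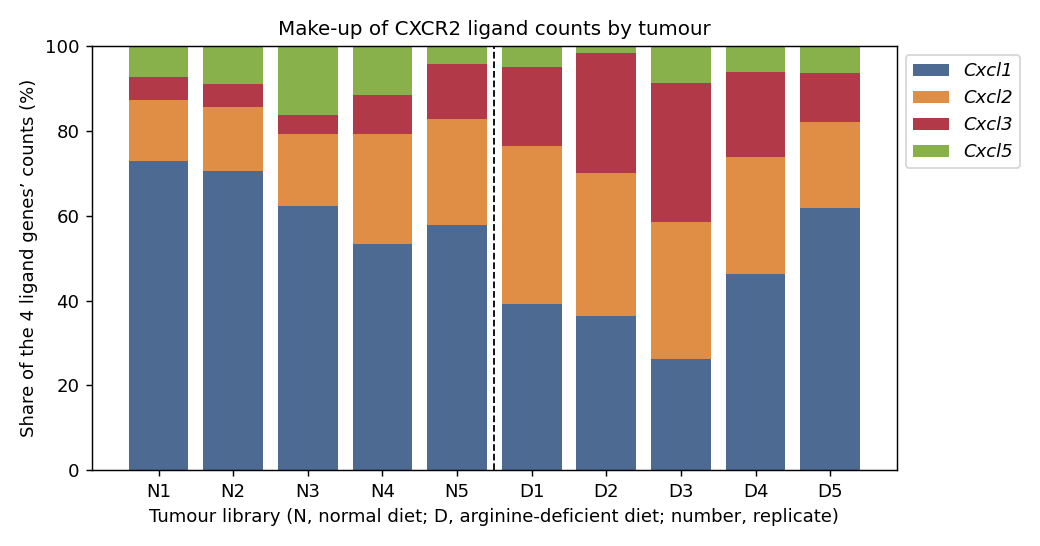
Share of each ligand gene (vertical axis, percent of the counts of the 4 genes together) in each tumour library (horizontal axis; N, normal diet; D, arginine-deficient diet; the number is the replicate). Cxcl3 takes 4.31% to 12.9% of the ligand counts in the normal-diet bars and 11.6% to 32.8% in the deficient-diet bars.

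Members also differed in how they varied from tumour to tumour. Of the 36 pairs of the 9 tested genes, 3 had an adjusted p under 0.05 for Pearson's r of log2 CPM over the 10 tumours (permutation test of 100000 resamples). The share of all pairs of tested genes that reach such values was not computed, so this count is not particular to the members. Kxd1, on none of the neutrophil lists below, had r of 0.89 with S100a8 and 0.83 with Cxcl1. Cxcl2 and Cxcl3 had r = 0.92 (permutation p = 5.1e-04, adjusted p = 0.0184) and Spearman's rho = 0.68 (adjusted p = 0.382, permutation test). Leaving out the libraries farthest from the median, arginine-deficient replicates 2 and 3, left r = 0.70.

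The other pairs that passed were those of Cxcl1 with the calprotectin genes. Its r was 0.85 with S100a9 (permutation p = 0.0017, adjusted p = 0.0306; rho = 0.76) and 0.83 with S100a8 (permutation p = 0.00321, adjusted p = 0.0385; rho = 0.77). By Spearman's rho both had an adjusted p of 0.268 in the permutation test. The libraries farthest from the median in S100a8 and S100a9 were arginine-deficient replicates 1 and 3, the most deeply sequenced, and without them r was 0.59 with S100a9 and 0.57 with S100a8. As deviations from the diet means, the 3 relations had r = 0.94, 0.79 and 0.86. With Cxcl2, Cxcl3 and Cxcl5, Cxcl1 had r = -0.06, -0.26 and 0.42, and 0.30, 0.25 and 0.13 as deviations from the diet means, and none passed. Whether these r differ from those with S100a8 and S100a9 was not tested.

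The marker genes did not vary as one group. Among their 10 pairs, r ran from -0.37 (Cxcr2 with Retnlg) to 0.72 (S100a8 with S100a9; permutation p = 0.0195, adjusted p = 0.176), with 5 positive and 5 negative. S100a8 with S100a9 fell to r = 0.09 without arginine-deficient replicates 1 and 3. Csf3r had r of -0.14 with S100a8 and -0.25 with S100a9. Between markers and ligands 13 of 20 pairs were positive, with a median r of 0.16.

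**Figure D4:**
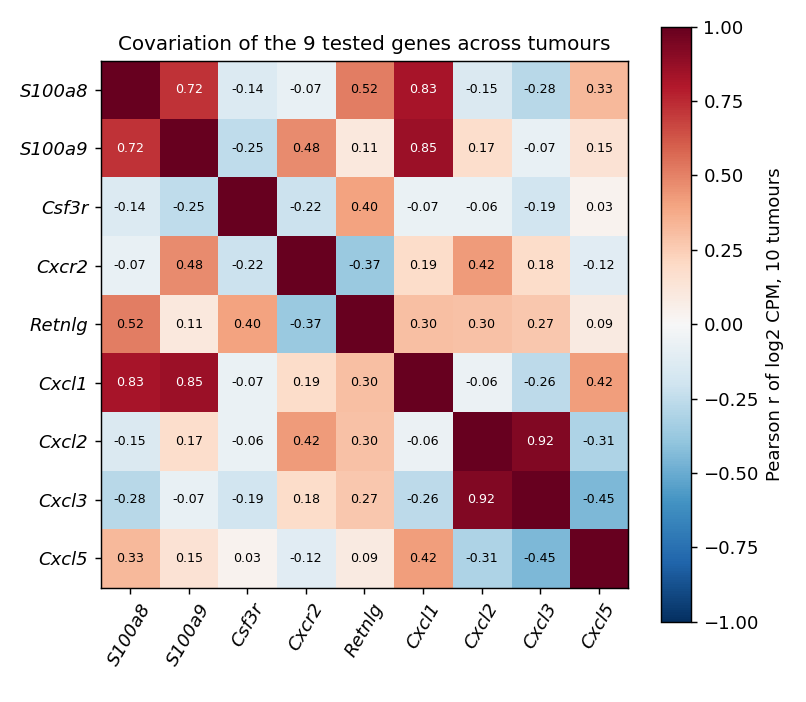
Pearson's r of log2 CPM over 10 tumours for every pair of the 9 tested genes (both axes list the genes; colour and number give r). The high values are Cxcl2 with Cxcl3 (0.92), S100a9 with Cxcl1 (0.85), S100a8 with Cxcl1 (0.83) and S100a8 with S100a9 (0.72).

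**Figure D5:**
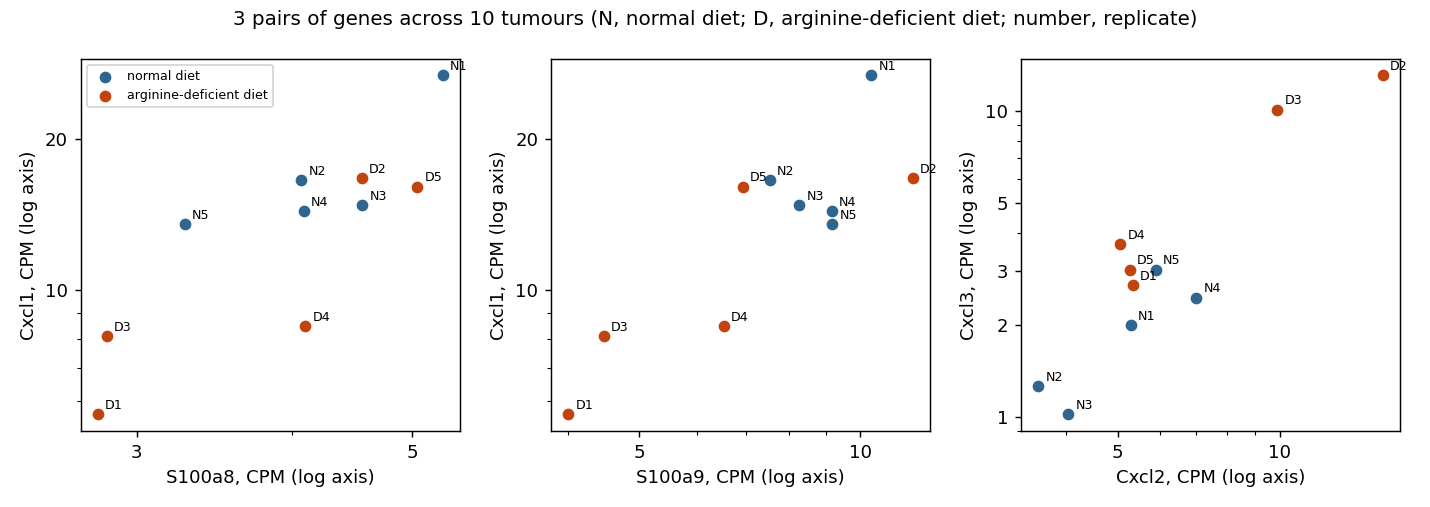
CPM of the paired genes on log axes, 1 point per tumour (N, normal diet; D, arginine-deficient diet; the number is the replicate). Arginine-deficient replicates 1 and 3 sit at the low end of S100a8 and S100a9, at 2.79 and 2.84 CPM of S100a8, and arginine-deficient replicates 2 and 3 at the high end of Cxcl2 and Cxcl3.

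Among 11136 protein-coding genes of at least 2 CPM, those most like S100a8 across the 10 tumours included Cdc26, Kxd1, Cebpzos and Vmn2r85, with r of 0.90, 0.89, 0.89 and 0.87. Those most like Cxcl1 were Trmo, C1rl, Kxd1, Trib2 and Rarres1, with r of 0.87, 0.86, 0.83, 0.82 and 0.82. None of these is on the neutrophil lists below, and the values are a description with no test.

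Other genes of neutrophils gave no call. Of 13 granule and maturation genes 7 were tested, 3 with a log2 fold change above 0 and 4 below, with a median of -0.05. Of these 7, 1 (Mmp8) had an unadjusted p under 0.05, against 6.74% of all genes tested. Mmp8, neutrophil collagenase, averaged 4.46 ± 1.24 against 1.74 ± 1.24 CPM (SD over 5 tumours a diet; log2 fold change 1.33 with SE 0.48 and edgeR adjusted p = 0.589), and Lcn2, the iron-carrier binding lipocalin, had -0.69 (SE 0.41, edgeR adjusted p = 0.861). Ctsg had 0.74 (SE 0.51) and Mmp9, gelatinase B, 0.42 (SE 0.31). Of 17 other genes of mature neutrophils 12 were tested, 7 above 0 and 5 below (median 0.02), and 0 had an unadjusted p under 0.05. Those with the smallest p were Pglyrp1, a peptidoglycan-binding granule protein (log2 fold change -0.36, SE 0.17), Il1r2, the decoy receptor of interleukin 1 (0.52, SE 0.25), Mxd1 (0.26, SE 0.13) and Mcemp1 (0.57, SE 0.32). Fpr2 and G0s2 were listed at 0 in every library, and 97.8% of the exonic bases of Fpr2 and all of those of G0s2 lie inside other genes.

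Of 11 genes given to suppressive neutrophils in tumours 9 were tested and 0 passed. The log2 fold change was above 0 in 8 of the 9, against 50.3% of all genes, with a median of 0.19. Wfdc17, a secreted antiprotease-like protein, averaged 20.5 ± 4.31 against 12.98 ± 2.54 CPM (SD over 5 tumours a diet; log2 fold change 0.67 with SE 0.18 and edgeR adjusted p = 0.355), and was the only 1 of the 9 with an unadjusted p under 0.05, against 6.74% of all genes. Tnfrsf10b, a death receptor, had 0.29 (SE 0.14), the arginase gene Arg2 0.33 (SE 0.18) and Cd84 0.20 (SE 0.16). Monocytes and macrophages express several of the genes of this list too.

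Upstream of the ligands, cytokines and their receptors were split, 5 above 0 and 5 below among the 10 tested of 16, with a median of -0.01, and 0 had an unadjusted p under 0.05. Il1b, a cytokine that induces the ligands, averaged 22.4 against 17.5 CPM (log2 fold change 0.35, SE 0.28), and Tnf had -0.22 (SE 0.24). The interleukin 1 receptor gene Il1r1 had -0.28 (SE 0.13) and Il6 0.74 (SE 0.40, at 1.61 against 0.941 CPM). Osm, the gene of oncostatin M, had 0.53 (SE 0.27) and Il1rap, the partner chain of that receptor, -0.35 (SE 0.23). Csf3, which encodes the ligand of Csf3r, had 45 counts in all and was not tested, and Il17a was listed at 0.

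Genes induced with the ligands by NF-kB, or that limit it, were split as well, 6 above 0 and 7 below of 13, with a median of -0.02. At an unadjusted p under 0.05 there were 3 above 0 and 1 below, against 3.54% and 3.19% of all genes, and 0 passed. Ptgs2, the inducible cyclooxygenase, averaged 159 ± 72.4 against 96.6 ± 20.0 CPM (SD over 5 tumours a diet; log2 fold change 0.72 with SE 0.28 and edgeR adjusted p = 0.632). Zfp36, whose product destabilises the messages of several cytokines, had 0.39 (SE 0.16) and Tnfaip3 0.31 (SE 0.13). Nfkbiz, a nuclear cofactor of NF-kB, had -0.29 (SE 0.12).

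The lists for other routes gave no call either. CXC chemokines and receptors outside the CXCR2 system had a log2 fold change above 0 in 5 of 8 tested members (median 0.15), the smallest p being that of Cxcl9 (0.34, SE 0.30). Lipid and complement attractants of neutrophils had one above 0 in 6 of 8 (median 0.15), the smallest p being that of the complement receptor gene C3ar1 (0.28, SE 0.18). None of these 16 had an unadjusted p under 0.05.

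Markers of other cells that make the same messages were set beside the members. The 11 monocyte and macrophage genes summed to 2219 to 2870 CPM on the deficient and 2063 to 2848 CPM on the normal diet, with 5 of 10 tested members above 0 in log2 fold change. Among them Itgam was listed at 0, with 99.1% of its exonic bases inside other genes. Keratinocytes, which also make S100a8, were sparse: their 9 genes summed to 3.59 to 7.60 CPM on the deficient and 3.62 to 4.73 CPM on the normal diet, with Dsg3 listed at 0. The fibroblast list summed to 2433 to 4120 and 2842 to 3636 CPM, with 2 of 7 members above 0. The 6 epithelial genes listed for the colon carcinoma line summed to 8.37 to 20.1 and 10.8 to 24.6 CPM, with 2 of 4 tested members above 0. How well this list follows the amount of CT26 cells was not tested. Arginine-deficient replicate 2, highest in Cxcl2 and Cxcl3, had 2870 CPM of the macrophage list, the highest sum on that diet, and 3.0 CPM of the muscle list. Arginine-deficient replicate 3, next highest in both ligands, had 2313 CPM of the macrophage list and 5074 CPM of the muscle list. Normal-diet replicate 1 had 2848 CPM of the macrophage list, with Cxcl3 at 2.00 CPM and Cxcl2 at 5.29 CPM. The part of these cells in the values of the ligands was not tested.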

How the data were processed

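RNA-seq of 10 tumours was analysed, 5 per diet, each library assigned to its diet by its title and to its column by the number in its description. The values the authors deposited were raw read counts per gene with no normalization applied. FastQC, STAR and featureCounts were run on mm10, per the submitters' processing notes. The sources used here do not give versions, settings or strandedness. GENCODE M21, on the same build, gave symbols, positions and transcripts: 21379 identifiers were found under their own version and 437 under a different one, and 33 had no symbol. Of the exonic bases of further listed genes named above, 76.7% (Il1rap), 36.7% (Zfp36), 30.8% (Mpo), 28.1% (Arg2), 27.3% (Il1b), 9.18% (Prtn3) and 6.39% (Il1r2) lie inside other genes. Promoter sequences came from RefSeq (GRCm38.p6), with entries for 9 of the 10 members.

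Diets were compared with edgeR 4.0.16 in R 4.3.3 by the quasi-likelihood test, using TMM factors, filterByExpr (minimum count 10, minimum total 15) and diet as the only term, on 12929 genes with 99.9% of counts. An SE is the log2 fold change divided by the root of its F statistic. Benjamini-Hochberg adjustment ran over all tested genes. Correlations used log2 CPM with a prior count of 2. The members and lists were chosen with earlier results of these data known. Beside the members, genes were named from the 4 smallest p of each list, and for S100a8 and Cxcl1 the 5 genes of most similar pattern. Of the genes this rule took, some are not reported here. Mpo, Elane, Prtn3, Ngp, Camp, Fpr2, G0s2, Il1b, Tnf, Csf3, Il17a, Cxcl15, Acta1, Alas2, Itgam and Dsg3 fall outside that rule and were named after their values were seen, as were the ligand ratios chosen. Libraries differed beyond sampling noise (lowest chi-square per degree of freedom 17.6) and were taken as separate animals. No label states this, so p-values measure the spread between these samples, which may be technical. In simulated counts for the diet comparison (12848 genes), the test found 12% of 1.5-fold changes, 58% of 2-fold, 100% of 3.4-fold and 98% of 4-fold changes (50 genes of each), with 4 false calls in all. The changed genes were drawn at random from those of at least 2 CPM, each with its own spread, so the shares are not those of any member. Cxcr2, Retnlg and Cxcl5 averaged less than that, at 0.718, 0.951 and 1.97 CPM. DESeq2 1.42.0 and limma 3.58.1 (voom) were alternatives, beside other scaling and filters, a replicate block and libraries left out.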

Additional observations from a re-analysis of the deposited data

Results flagged for a closer look

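Of the 20 groups of 5 libraries (10 genes, 2 diets), 1 had a library apart from the others, and about 1 in 20 is due by chance. In Cxcl1 on the normal diet, replicate 1 stood at 26.8 CPM, and the next highest library at 16.6 CPM. The gap between them was 0.772 of the range of that diet, above the critical value of 0.71 for 5 samples.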

How the results depend on the processing

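No member was called by edgeR under other scaling, filters, a replicate block or any library left out. DESeq2 called 1 higher (Cxcl3) and limma voom with sample weights 1 lower (Cxcl5). The sign of the log2 fold change held under every alternative run for Cxcl1, Cxcl2, Cxcl3, Cxcl5, S100a9, Cxcr2 and Retnlg. S100a8 turned to 0.099 without the 2 libraries with the largest totals. Csf3r, at -0.00, ranged from -0.12 to 0.084 with 1 library left out and was 0.14 without the 3 libraries richest in muscle.

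Over all genes, DESeq2 called 68 higher and 61 lower, limma voom 205 and 168, and the fit with a replicate block 1 and 0. It was 18 higher without the 3 libraries richest in muscle, 1 lower without the 2 with the largest totals, and 0 to 15 higher and 0 to 4 lower with 1 library left out. Same-numbered libraries did not vary together (r from -0.35 to 0.18, 1 of 10 libraries closest to its own number). The labels do not say whether the numbers pair the libraries, and r of so few pairs cannot exclude it. Pairs of members passing numbered 3, and 0 to 3 with 1 library left out: 0 when replicate 3 of either diet was left out.

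With 1 library left out, the ratio differences on the log2 scale ran from 1.10 to 1.57 (Cxcl2 to Cxcl1), 1.95 to 2.63 (Cxcl3 to Cxcl1), 0.85 to 1.11 (Cxcl3 to Cxcl2), -0.57 to 0.13 (Cxcl5 to Cxcl1), -1.86 to -1.07 (Cxcl5 to Cxcl2) and -2.96 to -1.98 (Cxcl5 to Cxcl3). Their adjusted p ran up to 0.0833, 0.0635, 0.0635, 0.968, 0.105 and 0.0635 by the exact permutation test. Without the 3 libraries richest in muscle, the 5 ratios with an adjusted p under 0.05 in all 10 libraries differed by 1.31, 2.09, 0.78, -1.89 and -2.67. None of them was then under 0.05 (adjusted p = 0.103, exact permutation test of 3 against 4). Counts of Cxcr2, Retnlg, Cxcl5 and Ly6g limit what could be seen of them.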
